A study of Homo sapiens with 16 samples.

Results

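Homologous recombination and Fanconi repair genes are described here in 2 human mammary cell lines treated with 2-deoxy-glucose (2DG). The group was given as a list of 39 gene symbols, and a gene counted as measured where a probe set of the array was annotated with that symbol alone. Where several probe sets met this, the one with the highest mean over the 16 arrays was used. This gave values for 35 of the 39 members, out of 19775 genes measured in all. RBBP8, BRCA2, FANCA and FANCD2 had no such row and were not analysed here.

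The arrays covered 4 groups of 4 biological replicates, lettered A to D in the labels. MDA-MB-231, a breast cancer line, received 50 mM 2DG or vehicle (water), and so did MCF10A, an immortalized mammary epithelial line that is not tumorigenic. Cells were harvested after 24 h, and the glucose in the medium of both lines was 17.5 mM. 2DG is a glucose analogue that blocks glycolysis, and the question of the series is what glucose metabolism does to transcription in such cells. The lines grew in different media. MDA-MB-231 cells had fetal bovine serum, while MCF10A cells had horse serum with hydrocortisone, cholera toxin, insulin and epidermal growth factor, so line and medium cannot be told apart. Each line stands for 1 culture model of its kind, and the replicates show the spread between cultures of that line only.

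Homologous recombination repairs broken DNA by copying the sister chromatid. The MRE11, RAD50 and NBN proteins bind the broken end, nucleases trim it to single strands, and the BRCA proteins and other mediators prepare these strands for the search for the matching sequence. The Fanconi anaemia pathway unhooks cross-links between the strands and hands the break to recombination, and the ATR and CHEK1 kinases signal stalled forks. In dividing cells many of these genes are transcribed mainly around S phase.

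All values are log2 intensities after RMA, the authors' normalization of the probes of a set, and a response is the value with 2DG minus that on vehicle. The medians of the 16 arrays lay between 6.17 and 6.22. The median gene stood at 7.22, and replicate arrays of a group differed by a median SD of 0.0759 to 0.0858 per gene. The actin 3' minus 5' control value, which rises with RNA breakdown, was 1.03 ± 0.0714 (SD, n = 4) with 2DG and 0.598 ± 0.331 on vehicle in MDA-MB-231, and 0.55 ± 0.0678 with 2DG and 0.392 ± 0.067 on vehicle in MCF10A. Among the MDA-MB-231 vehicle arrays, replicate B was highest at 1.09. The others stood at 0.38, 0.45 and 0.47, and the 2DG arrays of this line between 0.97 and 1.13. Apart from replicate B the value thus followed treatment in MDA-MB-231, so a covariate fit cannot fully separate it from 2DG there. With this value as a covariate, 32 members were called lower and 0 higher in MDA-MB-231, and 31 lower and 2 higher in MCF10A. All 7 measured markers of MCF10A (KRT5, KRT14, CDH1, CDH3, EPCAM, ITGB4 and LAMB3) were lower in MDA-MB-231. Of the 10 markers listed for MDA-MB-231, 6 were higher there on vehicle, led by ZEB1. CDH2 (5.13 and 5.20) and SPARC (5.70 and 5.55 in MDA-MB-231 with 2DG and on vehicle) went against the list, at 10.22 and 9.68 for CDH2 and 10.44 and 10.92 for SPARC in MCF10A. SNAI2 (10.96 in MDA-MB-231 and 11.76 in MCF10A on vehicle) and CD44 (12.85 and 12.93) did so by smaller steps. Of 14 markers of fibroblasts, blood and endothelium, all but COL1A1, DCN and PECAM1 stayed below the median gene in every group. Some of them rose with 2DG: of 6 fibroblast markers 2 rose in each line, and of 4 endothelial markers 2 rose in each line. In MCF10A, COL1A1 averaged 11.15 with 2DG and 9.04 on vehicle, and DCN 8.65 with 2DG and 6.88 on vehicle. In MDA-MB-231, COL3A1 averaged 6.46 with 2DG and 4.92 on vehicle, and PECAM1 8.22 with 2DG and 7.28 on vehicle. The log2 of the summed fibroblast markers lay between 11.39 and 11.52 with 2DG and between 9.52 and 9.62 on vehicle in MCF10A, and between 8.85 and 9.03 with 2DG and between 8.41 and 8.69 on vehicle in MDA-MB-231. The part of these markers in the responses of the repair genes was not tested.

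Transcripts of most members were lower after 2DG in both lines. In MDA-MB-231, 34 of the 35 members fell and 1, FANCB, rose at an adjusted p under 0.05 (limma, two-sided, adjusted over all genes). Over all genes, 25.4% were called lower and 25.5% higher. In MCF10A, 31 fell, 2 (FANCE and RAD50) rose and 2 (FANCF and TOPBP1) were not called, where 25.2% of all genes were called lower and 29.0% higher. The median response of the members was -0.85 in MDA-MB-231 and -1.31 in MCF10A, beside 0.03 and 0.02 over all genes. A called fall of at least 1 log2 unit, a halving of the signal or more, was seen for 15 members in MDA-MB-231 and 21 in MCF10A; the shares over all genes were 4.74% and 5.81%. All 4 arrays with 2DG lay below all 4 on vehicle for 34 members in MDA-MB-231 and 31 in MCF10A, which held for 24.0% and 24.2% of all genes.

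**Figure D1:**
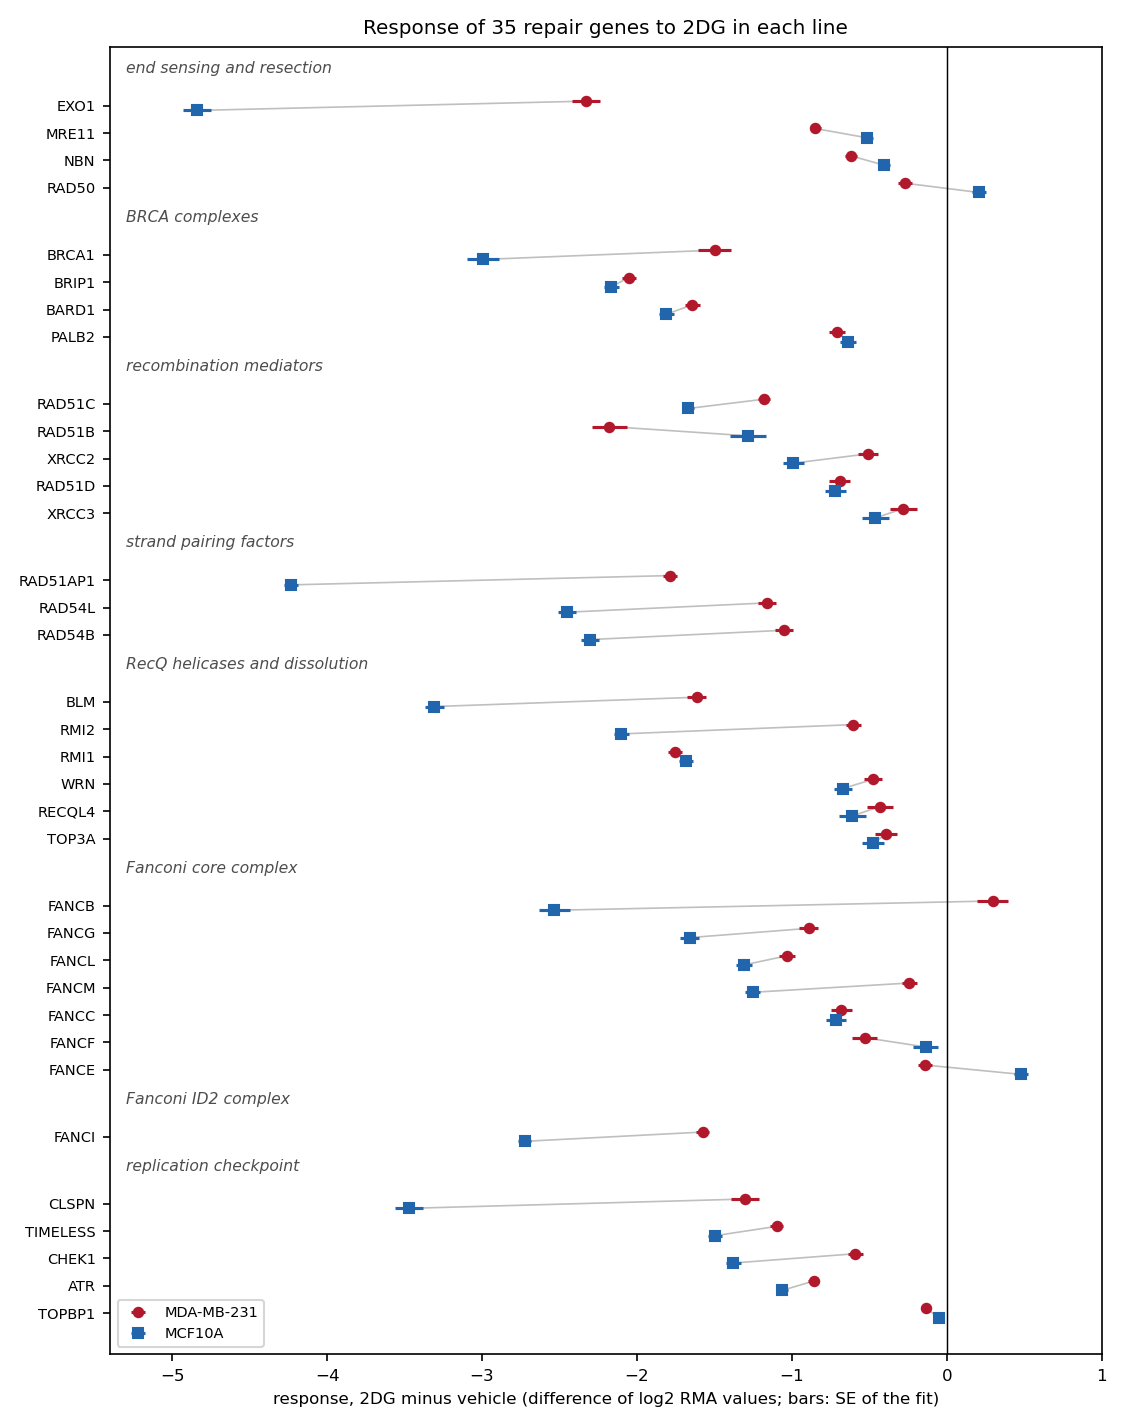
Response of each of the 35 measured members (difference of log2 values, 2DG minus vehicle; bars, SE of the fit), grouped by role, with MDA-MB-231 as circles above MCF10A as squares. EXO1 and RAD51AP1 show the lowest MCF10A values, and FANCB, FANCE and RAD50 have their lines on opposite sides of 0.

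Most markers of dividing cells also fell. Of 10 such markers, 9 fell in MDA-MB-231 and 10 in MCF10A, with median responses of -1.29 and -3.17. The log2 of their summed level lay between 14.78 and 14.79 with 2DG and between 16.02 and 16.08 on vehicle in MDA-MB-231. In MCF10A it lay between 12.74 and 12.80 with 2DG and between 15.66 and 15.72 on vehicle. PCNA, the sliding clamp of replication, changed by -1.04 (SE 0.0375, adjusted p = 7.67e-13) in MDA-MB-231 and -1.84 (SE 0.0375, adjusted p = 4.16e-16) in MCF10A. RRM2, a subunit of ribonucleotide reductase, changed by -2.01 (SE 0.0748, adjusted p = 1.07e-12) and -5.88 (SE 0.0748, adjusted p = 2.08e-18), and TOP2A, a topoisomerase of mitotic chromosomes, by -1.12 (SE 0.0681, adjusted p = 4.13e-10) and -3.16 (SE 0.0681, adjusted p = 7.89e-16), MDA-MB-231 first. MKI67, the Ki-67 gene, had a response of 0.12 (adjusted p = 0.161) in MDA-MB-231 on its brightest probe set but of -1.47 on the mean of its probe sets, and of -3.19 in MCF10A. Fewer cells in cycle and less RNA per cell cannot be told apart in such bulk samples, and the part of either in the responses of the repair genes was not tested.

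The promoters of 6 members are shown because these members mark the ends of the range in MCF10A: EXO1, RAD51AP1 and CLSPN had the largest falls, and FANCE, RAD50 and TOPBP1 the highest values. Each holds the 250 bases before the start of the gene in RefSeq (GRCh38.p14) and the 50 bases from it, 5′ to 3′ on the strand of the gene. Capitals mark matches to an E2F site (TTTCCCGC, TTTCGCGC, TTTGCCGC or TTTGGCGC), a CHR element (TTTGAA) or a CCAAT box (CCAAT), on either strand. The positions are chr1:241847954-241848253, plus strand, for EXO1; chr12:4538640-4538939, plus strand, for RAD51AP1; and chr1:35769929-35770228, minus strand, for CLSPN. FANCE lies at chr6:35452088-35452387, plus strand, RAD50 at chr5:132556727-132557026, plus strand and TOPBP1 at chr3:133661892-133662191, minus strand.
EXO1: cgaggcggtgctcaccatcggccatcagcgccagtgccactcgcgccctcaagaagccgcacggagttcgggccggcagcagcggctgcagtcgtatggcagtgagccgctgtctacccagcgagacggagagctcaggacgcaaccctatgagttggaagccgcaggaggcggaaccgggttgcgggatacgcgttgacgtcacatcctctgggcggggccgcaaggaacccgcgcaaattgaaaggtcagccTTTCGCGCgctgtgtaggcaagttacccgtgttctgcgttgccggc
RAD51AP1: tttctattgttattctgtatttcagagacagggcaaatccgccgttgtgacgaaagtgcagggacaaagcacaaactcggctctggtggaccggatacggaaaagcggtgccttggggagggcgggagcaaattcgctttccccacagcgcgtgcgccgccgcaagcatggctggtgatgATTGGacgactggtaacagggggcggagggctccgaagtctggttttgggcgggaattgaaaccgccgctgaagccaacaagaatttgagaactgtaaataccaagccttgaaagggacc
CLSPN: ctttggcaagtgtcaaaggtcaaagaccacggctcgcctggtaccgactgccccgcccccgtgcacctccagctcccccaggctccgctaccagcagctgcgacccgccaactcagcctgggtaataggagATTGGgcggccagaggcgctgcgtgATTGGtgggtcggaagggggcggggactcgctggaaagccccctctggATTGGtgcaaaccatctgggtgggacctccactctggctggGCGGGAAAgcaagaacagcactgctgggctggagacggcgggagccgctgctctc
FANCE: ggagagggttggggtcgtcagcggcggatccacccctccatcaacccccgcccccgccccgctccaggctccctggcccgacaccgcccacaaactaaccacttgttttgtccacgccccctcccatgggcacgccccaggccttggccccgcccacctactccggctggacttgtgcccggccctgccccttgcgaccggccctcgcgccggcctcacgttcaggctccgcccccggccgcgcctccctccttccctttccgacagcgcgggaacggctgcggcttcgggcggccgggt
RAD50: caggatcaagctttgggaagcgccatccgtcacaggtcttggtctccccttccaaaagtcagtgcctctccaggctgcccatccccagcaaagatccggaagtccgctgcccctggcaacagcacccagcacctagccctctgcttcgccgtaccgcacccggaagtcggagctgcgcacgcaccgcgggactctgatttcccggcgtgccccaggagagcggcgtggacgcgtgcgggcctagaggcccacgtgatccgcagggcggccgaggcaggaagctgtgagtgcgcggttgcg
TOPBP1: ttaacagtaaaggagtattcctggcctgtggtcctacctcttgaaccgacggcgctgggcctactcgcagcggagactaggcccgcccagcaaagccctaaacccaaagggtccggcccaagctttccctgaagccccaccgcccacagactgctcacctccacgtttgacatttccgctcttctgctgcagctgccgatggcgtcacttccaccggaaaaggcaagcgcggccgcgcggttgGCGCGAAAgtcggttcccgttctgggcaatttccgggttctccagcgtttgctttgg
The E2F match of EXO1 begins at 5, counted from 1 at the first base of the gene, and those of CLSPN and TOPBP1 begin at -5 and -7. CLSPN also holds CCAAT boxes at -119, -94 and -46, and RAD51AP1 holds 1 at -70. FANCE and RAD50 hold none of the 3 motifs. A promoter was given for 29 of the 35 members. An E2F word occurred in 5 of these (17.2%, against 3.33% of 27305 promoters of the same length): EXO1, XRCC2, FANCC, TOPBP1 and CLSPN. A CCAAT box occurred in 13 (44.8%, against 35.7%) and a CHR element in 2 (6.9%, against 15.4%). The 5 members with an E2F word had median responses of -0.68 in MDA-MB-231 and -0.99 in MCF10A, and the 24 without one -0.88 and -1.34. For the CCAAT box the medians were -1.10 and -1.495 in the 13 members with one, and -0.78 and -1.17 in the 16 without. For the CHR element they were -1.37 and -1.44 in the 2 members with one, and -0.86 and -1.31 in the 27 without. Among the members with an E2F word, TOPBP1 was one of the least changed, while EXO1 and CLSPN had some of the largest falls in MCF10A. Only exact words within these stretches were searched, and the part of the motifs in the responses was not tested.

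Among the genes of end sensing and resection, EXO1, an exonuclease that lengthens the single-stranded tail, had the largest fall of all members in both lines. In MDA-MB-231 its values were 7.38, 7.47, 7.45 and 7.57 with 2DG, against 9.83, 9.84, 9.83 and 9.69 on vehicle. In MCF10A they were 5.53, 5.29, 5.46 and 4.98 with 2DG, against 10.20, 10.13, 10.19 and 10.09 on vehicle. The 2DG arrays of both lines lay well below the vehicle arrays, and the MCF10A 2DG arrays lay lowest and were the most spread. The response was -2.33 (SE 0.0893, adjusted p = 1.55e-12) in MDA-MB-231, 5.03-fold lower, and -4.84 (SE 0.0893, adjusted p = 1.37e-16) in MCF10A. The MCF10A 2DG mean, 5.32, lay under the lower quartile of all genes (5.52), where RMA compresses differences, so no fold is given for it.

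The 3 subunits of the end-binding complex changed far less. RAD50, its coiled-coil ATPase, moved in opposite directions in the lines. Its values in MDA-MB-231 were 8.85, 8.87, 9.0 and 8.92 with 2DG, against 9.22, 9.11, 9.21 and 9.18 on vehicle. In MCF10A they were 10.80, 10.76, 10.80 and 10.65 with 2DG, against 10.62, 10.51, 10.54 and 10.51 on vehicle. The groups did not overlap in either line, but the 2DG arrays were the lower ones in MDA-MB-231 and the higher ones in MCF10A. The response was -0.27 (SE 0.046, adjusted p = 8.9e-05) in MDA-MB-231 and 0.21 (SE 0.046, adjusted p = 0.00096) in MCF10A. Both other RAD50 probe sets fell in MDA-MB-231 (-0.36 and -0.72), and in MCF10A they gave 0.69, called, and 0.07, not called. MRE11, the nuclease of the complex, fell in both lines (-0.85 in MDA-MB-231 and -0.52 in MCF10A). A dimmer MRE11 probe set also fell in both (-0.45 and -0.28), and the dimmest set was not called in either. For NBN, the subunit that recruits the ATM kinase, the brightest probe set gave -0.62 and -0.41, MDA-MB-231 first. Its probe sets disagreed: in MDA-MB-231 3 others rose, by 0.54, 0.85 and 0.51, and the same 3 fell in MCF10A. The remaining set, a dim one, was not called in MDA-MB-231 (-0.015) and rose by 0.54 in MCF10A. The direction of NBN therefore depends on the probe set in both lines.

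The genes of the BRCA complexes fell together in both lines. BRCA1, which promotes resection and recruits PALB2, had values of 8.52, 8.49, 8.37 and 8.21 with 2DG, against 9.89, 9.86, 9.90 and 9.93 on vehicle in MDA-MB-231. In MCF10A its values were 7.18, 7.65, 7.81 and 7.35 with 2DG, against 10.48, 10.53, 10.43 and 10.53 on vehicle. No 2DG array reached a vehicle array. The response was -1.50 (SE 0.105, adjusted p = 2.51e-09) in MDA-MB-231 and -3.00 (SE 0.105, adjusted p = 2.75e-13) in MCF10A. On this probe set the BRCA1 signal was thus 2.82-fold and 7.97-fold lower. The other BRCA1 set gave smaller falls, -1.12 in MDA-MB-231 and -1.84 in MCF10A.

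BARD1, the partner that BRCA1 needs for its ubiquitin ligase, and BRIP1, a helicase that binds BRCA1, had almost equal falls in the lines. BARD1 values were 8.88, 8.93, 8.95 and 8.83 with 2DG, against 10.50, 10.65, 10.53 and 10.48 on vehicle in MDA-MB-231, and 8.05, 8.07, 8.25 and 8.06 with 2DG, against 9.93, 9.90, 9.95 and 9.89 on vehicle in MCF10A. BRIP1 values were 8.06, 8.10, 8.13 and 8.13 with 2DG, against 10.16, 10.16, 10.12 and 10.19 on vehicle in MDA-MB-231, and 7.66, 7.71, 7.59 and 7.46 with 2DG, against 9.77, 9.77, 9.82 and 9.72 on vehicle in MCF10A. For both genes the 2DG arrays lay below the vehicle arrays in each line. BARD1 responded by -1.64 (SE 0.05, adjusted p = 1.14e-13) in MDA-MB-231 and -1.81 (SE 0.05, adjusted p = 1.5e-14) in MCF10A. BRIP1 responded by -2.05 (SE 0.0467, adjusted p = 5.79e-15) and -2.17 (SE 0.0467, adjusted p = 7.89e-16), in the same order. PALB2, the bridge between BRCA1 and BRCA2, fell in both lines (-0.71 in MDA-MB-231 and -0.64 in MCF10A).

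All 5 mediators of the strand search (RAD51B, RAD51C, RAD51D, XRCC2 and XRCC3) fell in both lines. RAD51B had the largest fall of them in MDA-MB-231. Its MDA-MB-231 values were 5.01, 5.43, 5.04 and 5.07 with 2DG, against 7.16, 7.40, 7.38 and 7.32 on vehicle, and its MCF10A values 5.39, 4.85, 4.90 and 4.85 with 2DG, against 6.17, 6.28, 6.29 and 6.38 on vehicle. The 2DG arrays of both lines sat near 5, under the lower quartile of all genes (5.52), where RMA compresses differences. The vehicle arrays stood higher in MDA-MB-231 than in MCF10A, by 1.035 on average. With 2DG the line difference was 0.14 and not called. The response was -2.18 (SE 0.115, adjusted p = 7.4e-11) in MDA-MB-231 and -1.28 (SE 0.115, adjusted p = 4.58e-08) in MCF10A. Another RAD51B probe set gave the opposite order, -0.89 in MDA-MB-231 and -1.23 in MCF10A, though that difference was not called. Of the remaining RAD51B sets, one was called in MDA-MB-231 (-0.64) and not in MCF10A (-0.18, adjusted p = 0.125), and one was called in neither line (0.065, adjusted p = 0.402, and -0.02, adjusted p = 0.812). The fall of RAD51B thus depends on the probe set, and all 4 sets averaged below the median gene with 2DG. The responses were -1.18 and -1.67 for RAD51C, -0.51 and -0.99 for XRCC2, -0.69 and -0.72 for RAD51D, and -0.28 and -0.46 for XRCC3, MDA-MB-231 first in each. The fall of XRCC3 in MDA-MB-231 just missed the threshold without vehicle replicate B (-0.21, adjusted p = 0.0503).

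The 3 strand pairing factors (RAD51AP1, RAD54B and RAD54L) fell in both lines, and each fell more in MCF10A. RAD51AP1, which helps the strands pair, had values of 9.74, 9.73, 9.77 and 9.73 with 2DG, against 11.47, 11.61, 11.51 and 11.52 on vehicle in MDA-MB-231. In MCF10A its values were 6.85, 6.79, 6.85 and 6.68 with 2DG, against 11.04, 10.98, 11.10 and 10.99 on vehicle. On vehicle MDA-MB-231 stood 0.50 above MCF10A, a called difference, and with 2DG the MCF10A arrays lay far below those of MDA-MB-231. The response was -1.78 (SE 0.0445, adjusted p = 1.33e-14) in MDA-MB-231 and -4.24 (SE 0.0445, adjusted p = 4.66e-19) in MCF10A, 3.45-fold and 18.8-fold lower. RAD54L, a motor protein that remodels the filament, had 8.94, 8.69, 8.77 and 8.80 with 2DG, against 10.00, 9.95, 9.88 and 10.01 on vehicle in MDA-MB-231, and 6.78, 6.95, 6.87 and 6.72 with 2DG, against 9.26, 9.32, 9.28 and 9.27 on vehicle in MCF10A. The groups were again apart in both lines, with the lowest values on the MCF10A 2DG arrays. Its response was -1.16 (SE 0.0562, adjusted p = 2.58e-11) and -2.45 (SE 0.0562, adjusted p = 1.67e-15). RAD54B, a relative of RAD54L, fell in both lines (-1.05 in MDA-MB-231 and -2.30 in MCF10A).

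Among the RecQ helicases and the dissolution complex, which separates joined chromosomes without crossing over, all 6 members fell in both lines. BLM, the helicase mutated in Bloom syndrome, had values of 7.39, 7.45, 7.45 and 7.36 with 2DG, against 9.11, 9.02, 9.0 and 8.98 on vehicle in MDA-MB-231. In MCF10A they were 5.75, 5.83, 5.49 and 5.71 with 2DG, against 9.03, 8.95, 9.08 and 8.95 on vehicle. The vehicle arrays of the lines lay close together, and the 2DG arrays did not. The response was -1.61 (SE 0.0607, adjusted p = 1.22e-12) and -3.31 (SE 0.0607, adjusted p = 1.28e-16), MDA-MB-231 first. The scaffold proteins RMI1 and RMI2, partners of BLM, behaved unlike each other. RMI1 values were 9.32, 9.18, 9.30 and 9.25 with 2DG, against 11.02, 11.06, 11.08 and 10.91 on vehicle in MDA-MB-231, and 8.80, 8.78, 8.91 and 8.77 with 2DG, against 10.48, 10.49, 10.52 and 10.51 on vehicle in MCF10A. RMI2 values were 8.89, 8.86, 8.91 and 8.96 with 2DG, against 9.48, 9.48, 9.52 and 9.55 on vehicle in MDA-MB-231, and 7.25, 7.23, 7.25 and 7.43 with 2DG, against 9.38, 9.32, 9.47 and 9.39 on vehicle in MCF10A. For RMI1 the distance between the groups was alike in the lines, and for RMI2 it was several times wider in MCF10A. RMI1 responded by -1.75 (SE 0.0454, adjusted p = 1.85e-14) and -1.69 (SE 0.0454, adjusted p = 1.14e-14), and RMI2 by -0.60 (SE 0.0469, adjusted p = 9.66e-09) and -2.10 (SE 0.0469, adjusted p = 1.21e-15). TOP3A, the topoisomerase of the complex, fell in both lines (-0.39 in MDA-MB-231 and -0.47 in MCF10A), but another of its probe sets rose by 0.36 in MDA-MB-231 and was not called in MCF10A (-0.11), and its dim remaining set was called in neither line. The helicase WRN fell (-0.47 and -0.67), and so did RECQL4 (-0.43 and -0.61).

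**Figure D2:**
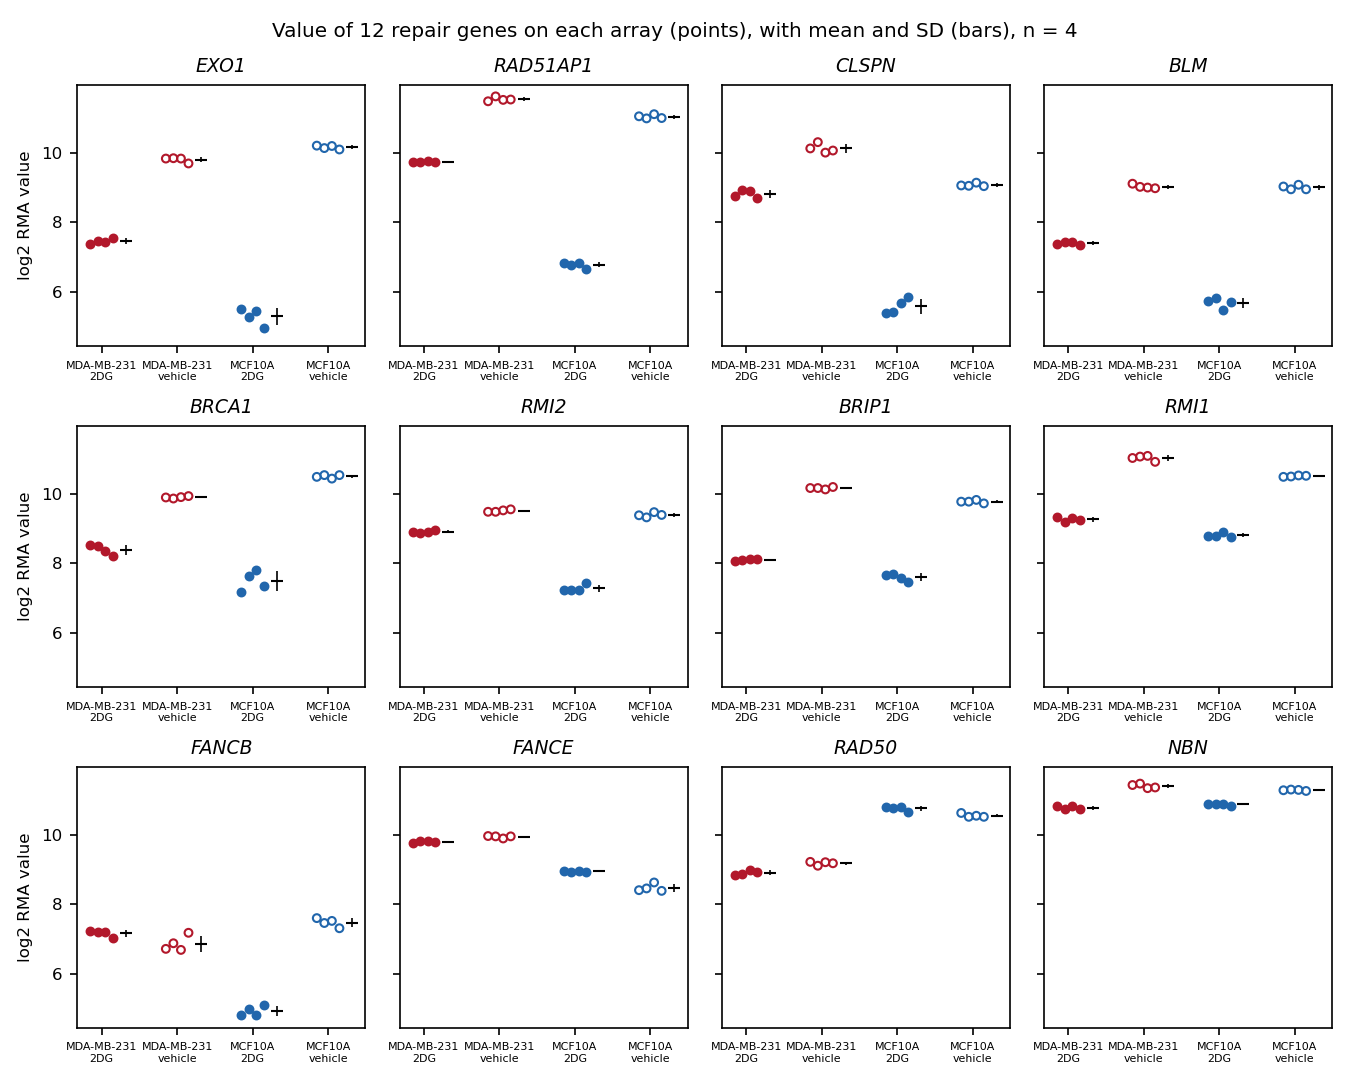
Log2 value of 12 members on each array (points, 4 per group) with the group mean and SD (black bars), 2DG left of vehicle within each line and MDA-MB-231 left of MCF10A. For EXO1, RAD51AP1 and BLM the lines lie nearer each other on vehicle than with 2DG, where the MCF10A arrays lie lowest. The FANCB groups overlap in MDA-MB-231.

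The Fanconi core complex, the ubiquitin ligase that marks cross-linked sites, was the most divided group. FANCB, a subunit of its catalytic module, was the 1 member called higher in MDA-MB-231. Its values there were 7.24, 7.22, 7.21 and 7.03 with 2DG, against 6.73, 6.89, 6.70 and 7.19 on vehicle. In MCF10A they were 4.83, 5.02, 4.83 and 5.11 with 2DG, against 7.61, 7.47, 7.53 and 7.32 on vehicle. In MDA-MB-231 vehicle replicate D reached into the range of the 2DG arrays, whereas in MCF10A the groups were far apart. The response was 0.30 (SE 0.1, adjusted p = 0.0202) in MDA-MB-231 and -2.54 (SE 0.1, adjusted p = 1.27e-12) in MCF10A. The MDA-MB-231 rise was not called without vehicle replicate A (0.25, adjusted p = 0.0683), without vehicle replicate C (0.24, adjusted p = 0.0723), without 2DG replicate A (0.28, adjusted p = 0.0525), on the mean of its probe sets (0.12, adjusted p = 0.106), or with the actin ratio as a covariate (0.25, adjusted p = 0.19). The fall in MCF10A was called under every alternative run on this probe set. Of its 3 other probe sets, 2 gave the same directions in both lines, with -2.77 and -2.72 in MCF10A, and a dim one gave -0.39 and -0.43, MDA-MB-231 first.

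FANCE, the subunit that links the core to FANCD2, was called in opposite directions in the lines. Its values in MDA-MB-231 were 9.77, 9.82, 9.82 and 9.79 with 2DG, against 9.96, 9.95, 9.89 and 9.95 on vehicle. In MCF10A they were 8.95, 8.94, 8.97 and 8.94 with 2DG, against 8.41, 8.46, 8.63 and 8.39 on vehicle. The 2DG arrays were the lower ones in MDA-MB-231, by a small step, and the higher ones in MCF10A. The response was -0.14 (SE 0.0449, adjusted p = 0.0171) and 0.48 (SE 0.0449, adjusted p = 8.5e-08), MDA-MB-231 first, and the MDA-MB-231 fall was not called with the actin ratio as a covariate (adjusted p = 0.12). FANCF, an adaptor of the complex, fell in MDA-MB-231 (-0.53). In MCF10A its value was -0.14 (adjusted p = 0.18), and a second probe set rose by 0.42 there. FANCG, another adaptor, fell in both lines (-0.89 and -1.66), as did FANCL, the ligase subunit (-1.03 and -1.31), and FANCC, the partner of FANCE (-0.68 and -0.71). The other 2 FANCC probe sets, both dim, were not called in MDA-MB-231 (0.11 and 0.012), and in MCF10A 1 rose by 0.21 and the other was not called (-0.13, adjusted p = 0.41). FANCM, the translocase that brings the complex to DNA, fell in both lines (-0.24 in MDA-MB-231 and -1.25 in MCF10A). Its MDA-MB-231 fall was not called with the actin ratio as a covariate (-0.12, adjusted p = 0.0896), and another FANCM probe set rose there by 0.57 while it fell in MCF10A (-1.83). A further FANCM set fell in MCF10A (-0.98) and was not called in MDA-MB-231 (-0.085), and the 1 set that is not shared with other transcripts, a dim one, was called in neither line (-0.015 and -0.08, adjusted p = 0.927 and 0.581).

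FANCI, which the core complex marks together with FANCD2, fell in both lines. Its values were 9.41, 9.35, 9.46 and 9.38 with 2DG, against 10.96, 10.91, 10.98 and 11.05 on vehicle in MDA-MB-231, and 8.42, 8.35, 8.42 and 8.35 with 2DG, against 11.18, 11.08, 11.12 and 11.06 on vehicle in MCF10A. The lines stood within a narrow range on vehicle, and with 2DG every MCF10A array was below every MDA-MB-231 array. The response was -1.57 (SE 0.0406, adjusted p = 1.81e-14) in MDA-MB-231 and -2.73 (SE 0.0406, adjusted p = 1.09e-17) in MCF10A.

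In the replication checkpoint, CLSPN, the claspin gene whose product carries the signal of ATR to CHEK1, changed most. Its values in MDA-MB-231 were 8.75, 8.92, 8.90 and 8.71 with 2DG, against 10.12, 10.30, 10.00 and 10.06 on vehicle. In MCF10A they were 5.42, 5.44, 5.69 and 5.86 with 2DG, against 9.06, 9.05, 9.14 and 9.04 on vehicle. The 2DG arrays lay below the vehicle arrays in both lines, with a far wider gap in MCF10A. The response was -1.30 (SE 0.0896, adjusted p = 2.13e-09) in MDA-MB-231 and -3.47 (SE 0.0896, adjusted p = 6.89e-15) in MCF10A. Its 3 other, dimmer probe sets fell in both lines, by differing amounts (-0.47 to -1.45 in MDA-MB-231 and -0.20 to -2.58 in MCF10A). TIMELESS, which protects forks, fell in both lines (-1.10 and -1.50), as did CHEK1 (-0.59 and -1.38) and ATR (-0.86 and -1.06), MDA-MB-231 first. TOPBP1, the activator of ATR, fell by 0.13 in MDA-MB-231 and had a value of -0.05 in MCF10A (adjusted p = 0.192).

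The responses of the lines were then set against each other. The difference of response, MDA-MB-231 minus MCF10A, was called above 0 for 18 members and below 0 for 6, where 22.3% of all genes were called above 0 and 23.6% below. Its median over the members was 0.20 (all genes 0.005). Falls in both lines were called for 30 members, where 15.9% of all genes were called lower in both. Of these 30 members, 17 fell less in MDA-MB-231, 3 (MRE11, NBN and RAD51B) fell more there, and 10 had no called difference. Among the 20, the call of MRE11 was lost on the mean of its probe sets (-0.13, adjusted p = 0.0657). Without probe sets shared with other transcripts, the calls of MRE11 (-0.175, adjusted p = 0.21), TIMELESS (0.165, adjusted p = 0.495) and FANCM (0.065, adjusted p = 0.791) were lost. BRCA1, RAD51C and XRCC2 have only shared probe sets, so their differences could not be checked in this way. Large differences were those of FANCB, 2.83 (SE 0.141, adjusted p = 9e-11), EXO1 with 2.51 (SE 0.126, adjusted p = 9.87e-11), RAD51AP1 with 2.45 (SE 0.0629, adjusted p = 6.06e-14) and CLSPN with 2.17 (SE 0.127, adjusted p = 5.63e-10). The MCF10A 2DG means of FANCB (4.95) and EXO1 (5.32) lay under the lower quartile of all genes, so the sizes of these differences are not ranked. Those of CLSPN (5.60) and BLM (5.695) lay just above this quartile (5.52). Single arrays of CLSPN (5.42 and 5.44) and BLM (5.49) lay under it, so the same limit bears on their differences. The 3 other CLSPN sets gave 1.12, 0.18 (not called) and -0.27 (adjusted p = 0.0392). Smaller differences were those of BLM with 1.69 (SE 0.0858, adjusted p = 1.06e-10), RMI2 with 1.50 (SE 0.0663, adjusted p = 2.19e-11) and BRCA1 with 1.50 (SE 0.148, adjusted p = 2.92e-07). The other BRCA1 set gave a difference of 0.715. The 6 below 0 were RAD51B (-0.90), FANCE (-0.61), RAD50 (-0.48), FANCF (-0.39), MRE11 (-0.34) and NBN (-0.21), RAD51B and NBN with the probe set limits given above. The 2DG means of RAD51B lay under the lower quartile in both lines (5.14 in MDA-MB-231 and 5.00 in MCF10A), so the size of its difference is not ranked either.

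The 10 members with no called difference included some of the strongest falls. The 95% interval of the difference was -0.03 to 0.25 for BRIP1, -0.21 to 0.07 for RMI1 and 0.02 to 0.32 for BARD1. For PALB2 it was -0.23 to 0.08, for RAD51D -0.18 to 0.23, for FANCC -0.16 to 0.23 and for TOP3A -0.13 to 0.29. For XRCC3 it was -0.08 to 0.44, for WRN 0.02 to 0.38 and for RECQL4 -0.08 to 0.44. The intervals of BRIP1 and RMI1 are narrow beside their falls, and those of BARD1 and WRN, taken singly, do not reach 0. BARD1, WRN, RECQL4 and TOP3A were called for the difference under some of the alternatives. On the mean of all probe sets, BARD1 (adjusted p = 0.0243), RECQL4 (adjusted p = 0.033) and TOP3A (adjusted p = 0.0478) were called. With arrays centred on their medians, BARD1 (adjusted p = 0.0203) and WRN (adjusted p = 0.0299) were called. BARD1 and WRN were also called without dim genes, BARD1 with the trended robust fit, and RECQL4 without shared probe sets. The difference of BARD1 was called without MCF10A 2DG replicate C (0.22, adjusted p = 0.00906), without MDA-MB-231 vehicle replicate B (0.20, adjusted p = 0.0193) and without MDA-MB-231 2DG replicate D (0.19, adjusted p = 0.0455). That of WRN was called without MCF10A 2DG replicate C (0.25, adjusted p = 0.0127) and without MDA-MB-231 2DG replicate B (0.24, adjusted p = 0.0243), and that of RECQL4 without MDA-MB-231 vehicle replicate B (0.29, adjusted p = 0.00172). Across the 35 members the responses of the lines had a Pearson r of 0.676 and a Spearman rho of 0.712, against 0.54 and 0.478 over all genes. Genes measured on the same arrays are not independent, so these are descriptions. The responses spread more widely in MCF10A, with an SD among members of 0.639 in MDA-MB-231 and 1.24 in MCF10A.

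**Figure D3:**
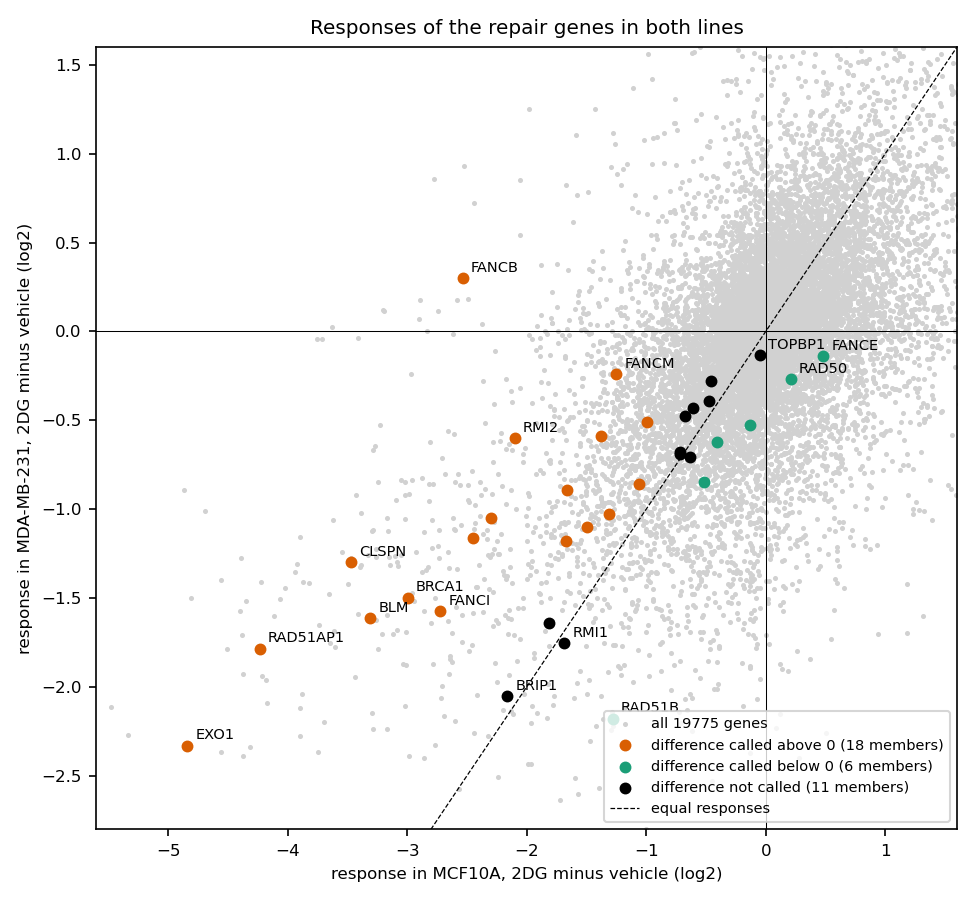
Response in MDA-MB-231 (vertical axis) against response in MCF10A (horizontal axis), both 2DG minus vehicle in log2, for the 35 members coloured by the call of their difference and for all genes in grey (genes beyond the axes are not drawn). EXO1, RAD51AP1 and CLSPN lie far above the dashed line of equal responses, BRIP1 and RMI1 lie near it, and RAD51B, FANCE and RAD50 lie below it.

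The lines were also compared directly at each condition. With 2DG, 23 members were higher and 6 lower in MDA-MB-231 than in MCF10A, where 30.7% of all genes were called higher and 28.8% lower. On vehicle, 14 were higher and 12 lower (29.2% and 26.8% of all genes). The median level of the members in MDA-MB-231 was 8.82 with 2DG and 9.83 on vehicle, and in MCF10A 8.05 with 2DG and 9.46 on vehicle. For BLM the line difference was 1.72 (SE 0.0607, adjusted p = 1.76e-13) with 2DG and 0.03 (SE 0.0607, adjusted p = 0.767) on vehicle. For EXO1 it was 2.15 (SE 0.0893, adjusted p = 1.42e-12) with 2DG and -0.35 (SE 0.0893, adjusted p = 0.0026) on vehicle, so the order of the lines was turned. BRCA1 and FANCB were likewise higher in MDA-MB-231 with 2DG (0.90 and 2.23) and lower there on vehicle (-0.60 and -0.61, all called). These line comparisons share their arrays with the responses.

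Genes of the wider pathway were called in both directions, with medians nearer 0. Of 72 measured genes of recombination, cross-link repair and fork protection outside the members, 40 fell and 19 rose in MDA-MB-231 (median -0.19), and 41 fell and 17 rose in MCF10A (median -0.26). Calls over all genes also went both ways, with 25.4% lower and 25.5% higher in MDA-MB-231, and 25.2% and 29.0% in MCF10A. In MDA-MB-231 the largest falls were those of ZRANB3, a fork-remodelling translocase, at -1.70 (SE 0.0653, adjusted p = 1.62e-12), RPA3, the small subunit of the single-strand binding protein, at -1.39 (SE 0.0407, adjusted p = 7.14e-14), TIPIN, the partner of TIMELESS, at -1.32 (SE 0.046, adjusted p = 5.15e-13), and UBE2T, the ubiquitin-conjugating enzyme of the Fanconi pathway, at -1.26 (SE 0.0456, adjusted p = 7.83e-13). In MCF10A TIPIN led with -3.08 (SE 0.046, adjusted p = 1.09e-17), then UBE2T with -3.06 (SE 0.0456, adjusted p = 1.09e-17), POLQ, the polymerase of end joining by microhomology, with -2.87 (SE 0.0654, adjusted p = 1.54e-15), and FIRRM with -2.61 (SE 0.0635, adjusted p = 3.35e-15). Each of these genes also fell in the other line: ZRANB3 and RPA3 in MCF10A (-1.15 and -2.17), and POLQ and FIRRM in MDA-MB-231 (-0.82 and -1.11). UIMC1, the RAP80 protein that holds BRCA1 at ubiquitin chains, had the largest rise in both lines. UIMC1 averaged 10.87 ± 0.0392 with 2DG and 10.09 ± 0.0538 on vehicle in MDA-MB-231, and 10.81 ± 0.0395 with 2DG and 10.06 ± 0.0216 on vehicle in MCF10A (SD, n = 4 each). Its responses were 0.78 (SE 0.0361, adjusted p = 1.4e-11) and 0.75 (SE 0.0361, adjusted p = 1.63e-11). The other named rises, MDA-MB-231 first, were those of ERCC1 (0.63 and 0.18), ATRX (0.49 and 0.47), BOD1L1 (0.34 and 0.62) and REV1 (0.14 and 0.56), called in both lines. POLN rose in MCF10A (0.57) and had a value of 0.09 (adjusted p = 0.322) in MDA-MB-231. RNF8 rose by 0.46 in MDA-MB-231 and fell in MCF10A (-0.24). In MDA-MB-231 RNF8 had a value of -0.04 on the mean of its probe sets.

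In the other repair routes, apart from mismatch repair, genes were also called in both directions. Falls outnumbered rises in each route and line except nucleotide excision repair in MCF10A. The shares over all genes were 25.4% lower and 25.5% higher in MDA-MB-231, and 25.2% and 29.0% in MCF10A. Of 15 end-joining genes, 7 fell and 4 rose in MDA-MB-231 (median 0.01), and 9 fell and 3 rose in MCF10A (median -0.37). APTX (-1.13 and -0.98) and PAXX (-0.85 and -1.02) fell in both lines, MDA-MB-231 first. XRCC4, the partner of ligase IV, rose by 0.94 in MDA-MB-231 and fell in MCF10A (-0.75). Of 16 genes of nucleotide excision repair, 8 fell and 5 rose in MDA-MB-231 (median -0.12), and 5 fell and 6 rose in MCF10A (median 0.09). ERCC6, the CSB gene, rose in both lines by 1.22 and 0.86, and XPA fell in both (-1.08 and -0.35). GTF2H5 rose by 0.27 in MDA-MB-231 and fell in MCF10A (-0.68). Of the 4 measured mismatch genes, 4 fell in MDA-MB-231 (median -0.24) and 3 in MCF10A (median -0.56). MSH6 (-1.16 and -1.10) and PMS1 (-0.22 and -0.66) fell in both lines. MSH3 fell in MDA-MB-231 (-0.24) and had a value of 0.002 (adjusted p = 0.974) in MCF10A. Without shared probe sets MSH3 had a value of 0.01 in MDA-MB-231. Of 17 base excision genes, 11 fell and 5 rose in MDA-MB-231 (median -0.44), and 13 fell and 3 rose in MCF10A (median -0.59). The glycosylases NEIL3 (-2.40 and -2.86), NTHL1 (-1.11 and -1.26) and UNG (-1.10 and -1.44) fell in both lines.

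All 7 genes of the replicative helicase and its loading fell in both lines, with medians of -1.52 in MDA-MB-231 and -2.94 in MCF10A, lower than those of the members. MCM10, which activates the helicase, averaged 9.13 ± 0.0206 with 2DG and 10.87 ± 0.0419 on vehicle in MDA-MB-231. In MCF10A it averaged 3.85 ± 0.106 with 2DG and 10.75 ± 0.0263 on vehicle (SD, n = 4). Its responses were -1.74 (SE 0.0454, adjusted p = 2.04e-14) and -6.90 (SE 0.0454, adjusted p = 2.72e-21). Its MCF10A 2DG mean lay far under the lower quartile of all genes (5.52), so the size of that response rests on a signal near the bottom of the scale. MCM6 (-1.87 and -3.04) and MCM7 (-1.27 and -3.26) fell in both lines.

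**Figure D4:**
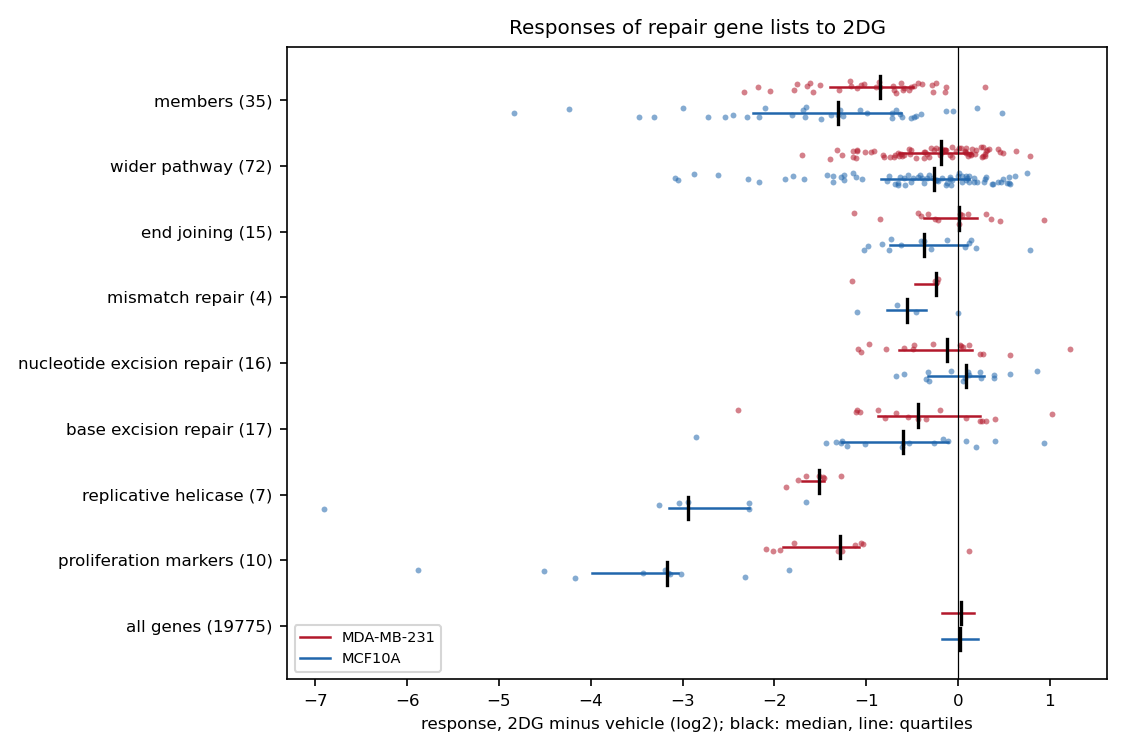
Responses (log2, 2DG minus vehicle) of each gene (points) in the member group, 6 other replication and repair lists and the proliferation markers, with medians (black) and quartiles (lines), MDA-MB-231 above MCF10A; all genes are shown by median and quartiles only. The members have medians of -0.85 and -1.31, between those of the wider pathway (-0.19 and -0.26) and the replicative helicase (-1.52 and -2.94).

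The agreement between probe sets bears on how far single genes can be read. Of the 35 members, 15 had 1 probe set and 20 had several, 75 probe sets in all. Of the 40 probe sets that were not the brightest, 11 had the opposite sign of response in MDA-MB-231 and 6 in MCF10A. Both probe sets of such a pair were called for 6 in MDA-MB-231 (in FANCB, FANCM, NBN and TOP3A) and for 2 in MCF10A (in FANCC and NBN). For the difference of response 11 had the opposite sign, with both sets called for 4 (in CLSPN and NBN). EXO1, RAD51AP1, BLM, RAD54L, RMI1, RMI2 and FANCE rest on 1 probe set each. The other probe sets of BARD1, BRIP1, BRCA1 and FANCI also fell in both lines, those of BRCA1 and FANCI by smaller amounts.

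**Figure D5:**
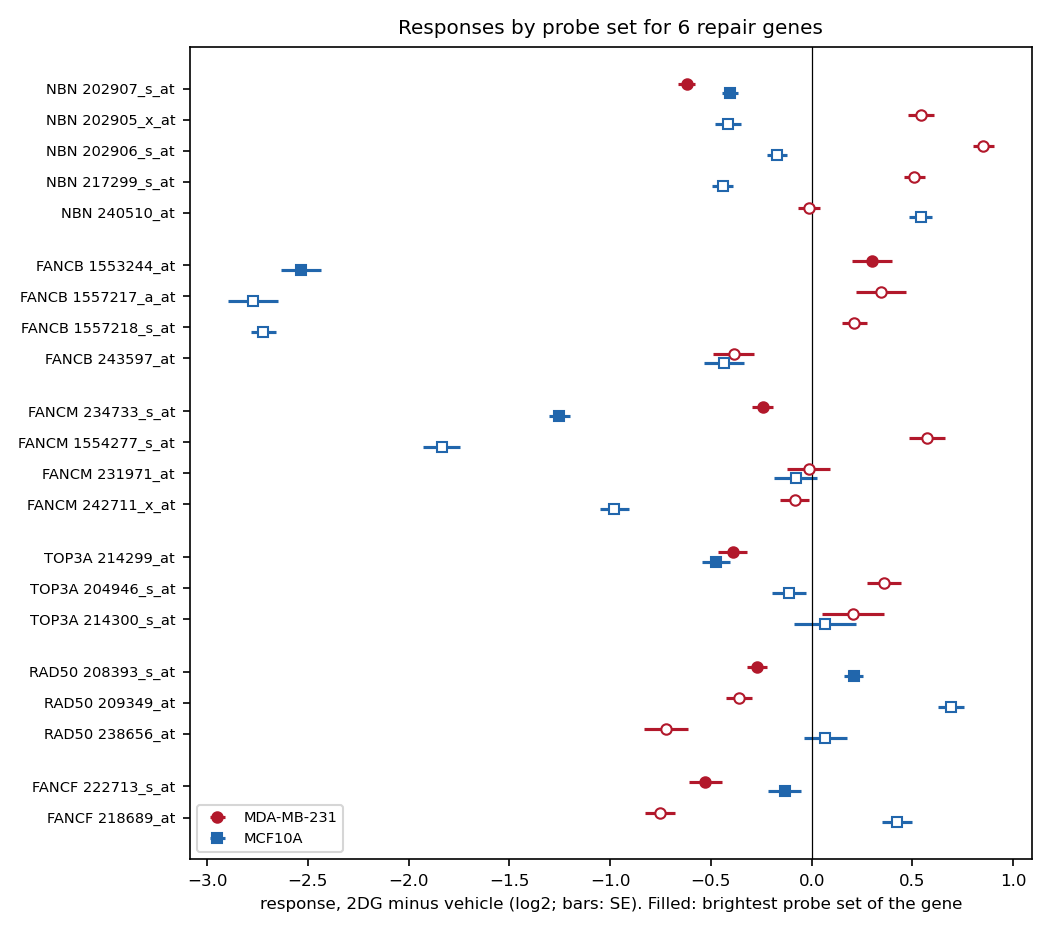
Response (log2, 2DG minus vehicle, with SE as bars) of every probe set of 6 members that have several. MDA-MB-231 is shown as circles above MCF10A as squares, filled for the brightest set. The RAD50 sets share a sign within each line but differ in size. For NBN the brightest set lies at -0.62 in MDA-MB-231 while 3 others lie above 0, and 3 of the 4 FANCB sets lie below -2.5 in MCF10A.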

How the data were processed

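RNA was hybridised to 16 one-colour Affymetrix U133 Plus 2.0 arrays. The deposited values are log2 intensities summarised by RMA, per the submitters' processing notes; the RMA version and a joint normalization are not given in the sources used here. RMA compresses low signals. Precision is limited by the 4 arrays a group. The table held 54675 probe sets, of which 41091 had exactly 1 gene in GEO's platform annotation. The brightest probe set stood for each of 19775 genes, without a filter on dim genes. Limma 3.58.1 in R 4.3.3 (lmFit, eBayes) fitted 4 group means, with 12 residual degrees of freedom and Benjamini-Hochberg adjustment over all genes. Calls were made at an adjusted p under 0.05. The procedure was tested on simulated data. Promoters came from RefSeq. Alternatives were the replicate letter as a block, the mean of all probe sets, no shared probe sets, no dim genes, a trended robust fit, each line alone, median centring, the actin ratio, a stricter threshold and each array left out. Every probe set alone was added after seeing the data.

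Members and gene lists were chosen with earlier results of these data known. Values per array are given for the members with the 8 largest falls and all called rises in each line, the 6 largest differences of response, and opposite directions. Of other lists, the 4 largest falls and rises (wider pathway) or the 2 largest changes are named. Same-letter arrays did not deviate together in MDA-MB-231 (correlations -0.099 to 0.019) and did weakly in MCF10A (0.04 to 0.088), so the letters were not taken as pairs.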

Additional observations from a re-analysis of the deposited data

Results flagged for a closer look

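A single array stood apart from the other 3 of its group for 12 of the 140 combinations of member and group, where chance gives about 1 in 20, or 7. In MDA-MB-231 with 2DG these were RAD51B in replicate B (5.43) and FANCB in replicate D (7.03). In MDA-MB-231 on vehicle they were PALB2 in replicate A (9.80), CHEK1 in replicate B (10.15), FANCE in replicate C (9.89), and EXO1 (9.69) and ATR (10.09) in replicate D. In MCF10A with 2DG they were RAD51B in replicate A (5.39), FANCL in replicate B (9.48), BARD1 in replicate C (8.25), and NBN (10.82) and RMI2 (7.43) in replicate D. No MCF10A vehicle array was among them, and no array held more than 2. The gap to the nearest array was at most 0.18 except for RAD51B, where it was 0.36 and 0.49.

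The response differed between the lines for 24 members by the test of the difference itself (MDA-MB-231 minus MCF10A, limma, adjusted over all genes). Above 0 were FANCB at 2.83, EXO1 at 2.51, RAD51AP1 at 2.45, CLSPN at 2.17, BLM at 1.69, BRCA1 at 1.50, RMI2 at 1.50, RAD54L at 1.29, RAD54B at 1.25, FANCI at 1.15 and FANCM at 1.01. Smaller values above 0 were those of CHEK1 at 0.79, FANCG at 0.77, RAD51C at 0.49, XRCC2 at 0.48, TIMELESS at 0.40, FANCL at 0.28 and ATR at 0.20. Below 0 were RAD51B at -0.90, FANCE at -0.61, RAD50 at -0.48, FANCF at -0.39, MRE11 at -0.34 and NBN at -0.21. The highest adjusted p among the 24 was 0.00937, that of FANCF.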

How the results depend on the processing

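The falls of the members kept their count of calls within 1.5 times in both lines under every alternative run. The 1 rise in MDA-MB-231, FANCB, gave 0 with the replicate block, with the actin ratio as a covariate and at an adjusted p under 0.01, and 0 to 1 when single arrays were left out. Rises in MCF10A numbered 4 without shared probe sets, with 31 members measured. The median response in MCF10A was -1.04 on the mean of all probe sets, -1.28 without shared probe sets, -1.35 with arrays centred on their medians and -1.36 to -1.30 when single arrays were left out; in MDA-MB-231 it was -0.71 on the mean of all probe sets and -0.76 without shared probe sets. With the replicate block 34 members fell in MDA-MB-231, 31 fell and 2 rose in MCF10A, and the difference was called for 25 instead of 24, BARD1 being added (adjusted p = 0.049). Every MCF10A array correlated best with its own letter, a hint from the data. The block was not run for the comparisons between lines, since each block holds 1 line.

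Some directions turned with the choice of probe set, and the cause was not tested. On the mean of all probe sets, NBN gave 0.25 in MDA-MB-231 and 0.43 for the difference, TOP3A 0.058, FANCM 0.058, RNF8 -0.039 and MKI67 -1.47 in MDA-MB-231, and FANCF 0.14 in MCF10A. Without shared probe sets, NBN gave 0.54 and FANCF 0.42 in MCF10A, and FANCC 0.012 and MSH3 0.012 in MDA-MB-231. Single probe sets of NBN gave 0.54, 0.85 and 0.51 in MDA-MB-231, 0.54 in MCF10A, and 0.96, 1.02 and 0.95 for the difference. Single probe sets of TOP3A gave 0.36, of FANCM 0.57 and of FANCB -0.39 in MDA-MB-231, of FANCC 0.21 in MCF10A, and of CLSPN -0.27 for the difference.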
